A study of Ovis aries with 2 samples.

Results

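The cells described here are the cycling lymphocytes of sheep blood: barcodes with at least 5 unique molecular identifiers (UMIs) summed over MKI67, TOP2A and CENPF. There were 386 of them among 17540 kept barcodes, 60 in the A.G.-ES library and 326 in the untreated library. Barcodes were kept when they held 200 genes or more and when mitochondrial genes gave 15% of their UMIs or less. A cell counted as T with at least 1 UMI of CD3D or CD3E, chains of the T-cell receptor complex, and at most 1 UMI of MS4A1, CD79B and PAX5. It counted as B with at least 3 UMIs of those B-cell genes and no CD3 UMI, and otherwise stayed unassigned. The A.G.-ES library held 46 cycling T cells, 2 cycling B cells and 12 unassigned cycling cells, and the untreated library held 111, 145 and 70.

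The study profiled peripheral blood mononuclear cells of sheep by droplet-based 3′ single-cell RNA sequencing, with 1 library per group. One library came from animals given A.G.-ES by acupoint embedding on both sides at ST36, and the other from animals given nothing. All cells came from fresh blood separated on a HISTOPAQUE 1083 gradient and were never cultured, and debris and dead cells were taken out where needed. The labels say neither what A.G.-ES contains nor how many animals gave blood, nor their age, sex or breed. With 1 library per group there is no replicate and no test between groups. Every interval below is a 95% interval for counting error only, and "called" means a difference of at least 2-fold.

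Most lymphocytes in blood rest outside the cell cycle, held there by quiescence factors that keep transcription and growth low. A lymphocyte that enters the cycle first loads MCM helicases onto its origins, then makes nucleotides and histones while it copies its DNA in S phase. Condensins, kinetochore proteins, kinesins and mitotic kinases are made in G2 and M phase, and the anaphase-promoting complex then destroys many of them at mitotic exit. MKI67 codes for Ki-67, which coats mitotic chromosomes, TOP2A for the topoisomerase that untangles sister DNA, and CENPF for a kinetochore-associated protein. Proliferating lymphocytes in blood are mainly stimulated T cells and plasmablasts, the dividing precursors of plasma cells.

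The libraries held 44485442 UMIs in 9638 barcodes (A.G.-ES) and 55861418 UMIs in 8246 barcodes (untreated). They shared 61 barcode sequences, of which 0 and 2 belonged to cycling cells. Y-linked genes gave 11 UMIs in the cycling cells of the A.G.-ES library and 4228 in those of the untreated library. Treatment, animals and library cannot be told apart in any comparison between them. Cycling cells held a median of 13298 UMIs in the A.G.-ES library and 15585.5 in the untreated library. Among T cells the cycling cells were deeper than those with none of the 3 marker genes, called zero-marker cells here: 12280.5 against 4035 UMIs in the A.G.-ES library, and 14087 against 3990 in the untreated library. Expression is therefore given as CPM, the UMIs of a gene summed over a group of cells and scaled to a total of 1e+06. A gene lower in CPM is a smaller part of the UMIs, and deeper cells can still hold as many or more UMIs of it.

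The label was first checked on genes that the choice did not use. At least 5 UMIs of RRM2, TYMS and CLSPN together, which code for enzymes of nucleotide supply and a replication checkpoint protein, were found in 23 of 60 A.G.-ES cycling cells (38.3%, 26.1 to 51.8). In the untreated library 135 of 326 cycling cells had them (41.4%, 36.0 to 47.0). The same mark was passed by 0 of 8946 zero-marker cells of the A.G.-ES library (up to 0.0335% for a count of 0) and by 2 of 7075 of the untreated library (0.0283%). These genes thus go with the label for the groups as wholes, and not in every cell. The mark was read in raw UMIs. Cycling cells were deeper than zero-marker cells, at a median of 13298 against 4153 UMIs (A.G.-ES) and 15585.5 against 4964 (untreated). The part of depth in this difference was not tested.

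The MKI67, TOP2A and CENPF values describe the choice itself. Cycling T cells of the A.G.-ES library held MKI67 at 782 CPM, TOP2A at 673 CPM and CENPF at 695 CPM, and those of the untreated library held 761, 505 and 653 CPM. Untreated cycling B cells held 841, 973 and 732 CPM. All 3 genes were detected together in 21 of 46 A.G.-ES and 67 of 111 untreated cycling T cells, and in 90 of 145 untreated cycling B cells. A single gene carried the choice in 6, 7 and 8 of those cells. The sum per cell ran from 5 through a median of 12 to 129 UMIs in the A.G.-ES library and from 5 through 21 to 294 in the untreated library.

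At the threshold, 9 A.G.-ES and 30 untreated cells had exactly 5 marker UMIs, and 14 and 42 cells had 4. In the cells just inside, the S-phase genes summed to 4783 CPM in the A.G.-ES library and 3142 CPM in the untreated library, against 1438 and 2763 CPM just outside. The G2 and M-phase genes summed to 3364 and 2457 CPM just inside, against 1804 and 2517 CPM just outside. In the untreated library the cells on either side of the threshold were thus alike in G2 and M-phase level.

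Cycling cells made up 0.635% (0.485 to 0.816) of kept cells in the A.G.-ES library and 4.03% (3.61 to 4.48) in the untreated library, 6.35-fold lower (4.81 to 8.51) in the A.G.-ES library. Among T cells the shares were 46 of 6404 (0.718%, 0.526 to 0.957) and 111 of 3597 (3.09%, 2.55 to 3.70), a 4.30-fold difference (3.02 to 6.20). For B cells they were 2 of 1280 (0.156%, 0.0189 to 0.563) and 145 of 3151 (4.60%, 3.90 to 5.39), a 29.5-fold difference (8.01 to 245). Barcodes of neither lineage gave 0.679% and 5.22%. The share was thus lower in the A.G.-ES library in every class of cells counted, by more than counting error.

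Depth differs between the libraries, so each cell was also thinned to 2000 UMIs, with shallower cells left out and at least 2 marker UMIs asked for. The cycling share was then 69 of 8339 cells (0.827%) in the A.G.-ES library and 272 of 7237 (3.76%) in the untreated library, 4.54-fold lower (3.48 to 6.01). For T cells it was 1.05% and 2.90%, 2.77-fold lower (1.99 to 3.89). For B cells it was 0.240% and 3.85%, 16.0-fold lower (5.35 to 78.9). Thinning narrowed each difference and turned none.

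**Figure D1:**
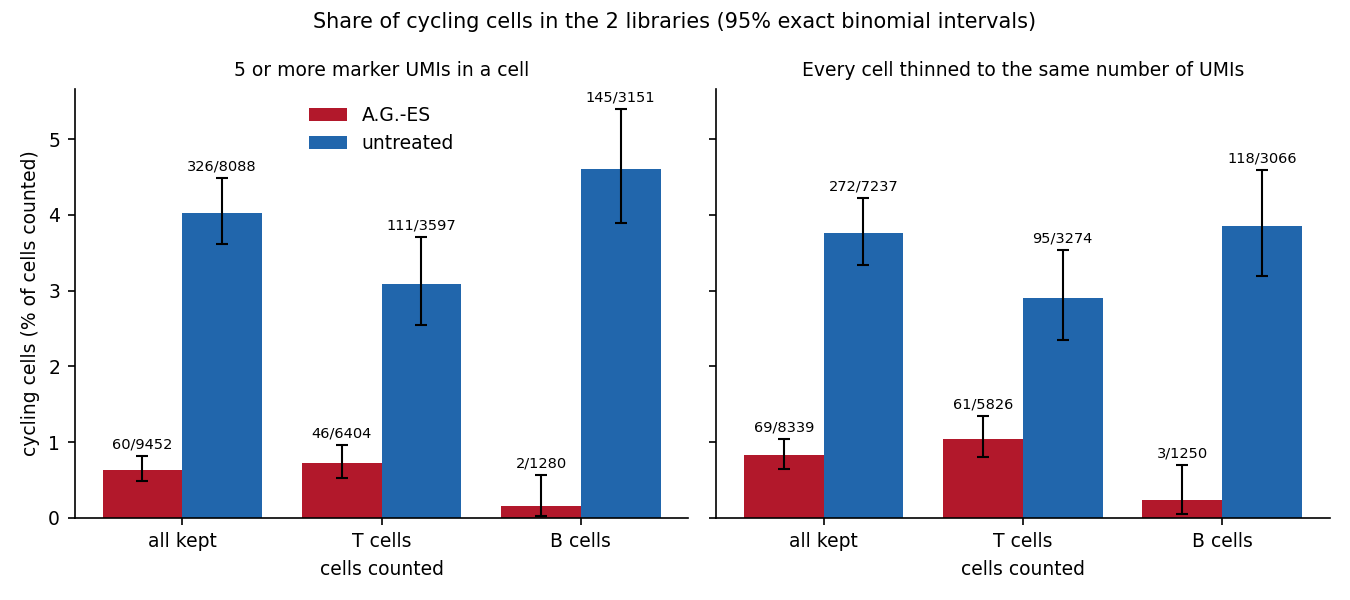
Share of cycling cells (%, linear axis from 0) among all kept cells, T cells and B cells, A.G.-ES in red beside untreated in blue, with the counts above each bar; error bars are 95% exact binomial intervals for 1 library each. Untreated bars reach 4.60% in B cells, while no A.G.-ES bar passes 1.05%, also with every cell thinned to 2000 UMIs.

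The lineages of the cycling cells differed between the libraries too. T cells were 76.7% of cycling cells in the A.G.-ES library and 34.0% in the untreated library, and B cells were 3.33% and 44.5%. Of the cycling cells with a lineage, 4.17% (0.509 to 14.3) were B in the A.G.-ES library and 56.6% (50.3 to 62.8) in the untreated library. The zero-marker cells had the same order at closer values, 16.8% and 46.2%. The cycling cells of the A.G.-ES library were therefore poorer in B cells than its zero-marker cells, and those of the untreated library richer.

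T cells were then split by CD8A or CD8B (co-receptor of cytotoxic T cells), CD4 (co-receptor of helper T cells) and SOX13, a transcription factor of gamma-delta T cells in mice, each read in the thinned counts, with cells that held more than 1 of them left out. Of T cells with a CD8A or CD8B UMI, 8 of 767 cycled in the A.G.-ES library (1.04%, 0.451 to 2.04) and 37 of 235 in the untreated library (15.7%, 11.3 to 21.0). The CD4 class gave 6 of 1033 (0.581%) and 8 of 224 (3.57%). With SOX13, cycling cells were 0 of 413 (up to 0.726% for a count of 0) and 2 of 914 (0.219%). T cells with none of these genes gave 32 of 3556 (0.900%) and 63 of 1869 (3.37%). The difference was 15.1-fold (6.92 to 37.5) in the CD8 class, 6.15-fold (1.87 to 21.5) in the CD4 class and 3.75-fold (2.41 to 5.93) in the class with none. With cycling cells also called on the thinned counts it was 12.6-fold (5.69 to 31.8), 5.07-fold (1.96 to 13.3) and 2.04-fold (1.31 to 3.16). Background for these genes is low: CD8A was found in 0.987% of zero-marker B cells of the A.G.-ES library (median 5517 UMIs) and in 0.255% of those of the untreated library (median 8576 UMIs).

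The cycling cells varied widely among themselves in S-phase and G2/M-phase level. The sum of 43 S-phase genes ran from 361 through a median of 5329 to 11953 CPM over the A.G.-ES cycling T cells, and from 303 through 5464 to 11722 CPM over the untreated ones. The sum of 50 G2 and M-phase genes ran from 1111 through 4822 to 23251 CPM and from 802 through 6742 to 24673 CPM. Untreated cycling B cells ran from 253 through 4173 to 11452 CPM for S phase and from 724 through 7639 to 24476 CPM for G2 and M phase. The ranges of the groups overlap almost wholly.

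S-phase genes exceeded G2 and M-phase genes in 17 of 46 A.G.-ES cycling T cells (37.0%, 23.2 to 52.5), in 36 of 111 untreated ones (32.4%, 23.9 to 42.0) and in 28 of 145 untreated cycling B cells (19.3%, 13.2 to 26.7). High levels of both were rare: 2, 3 and 1 cells passed 10000 CPM on both sums, although 5, 4 and 6 cells passed it for S phase and 12, 27 and 52 for G2 and M phase.

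Some cells chosen by the 3 markers carried little else of the cycle. Both sums were low (S phase under 2000 CPM and G2 and M phase under 4000 CPM, limits set after the values were seen) in 12 of 46 A.G.-ES cycling T cells, 18 of 111 untreated cycling T cells and 29 of 145 untreated cycling B cells. These cells held a median of 6, 7 and 6 marker UMIs, against 17, 24 and 37 in the other cycling cells of their group. Their TOP2A summed to only 1, 1 and 25 UMIs, while CENPF gave 74, 84 and 107 and MKI67 gave 21, 53 and 110. They were also shallower, with a median of 7750, 8808.5 and 10199 UMIs per cell against 14055, 16116 and 17232.5.

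**Figure D2:**
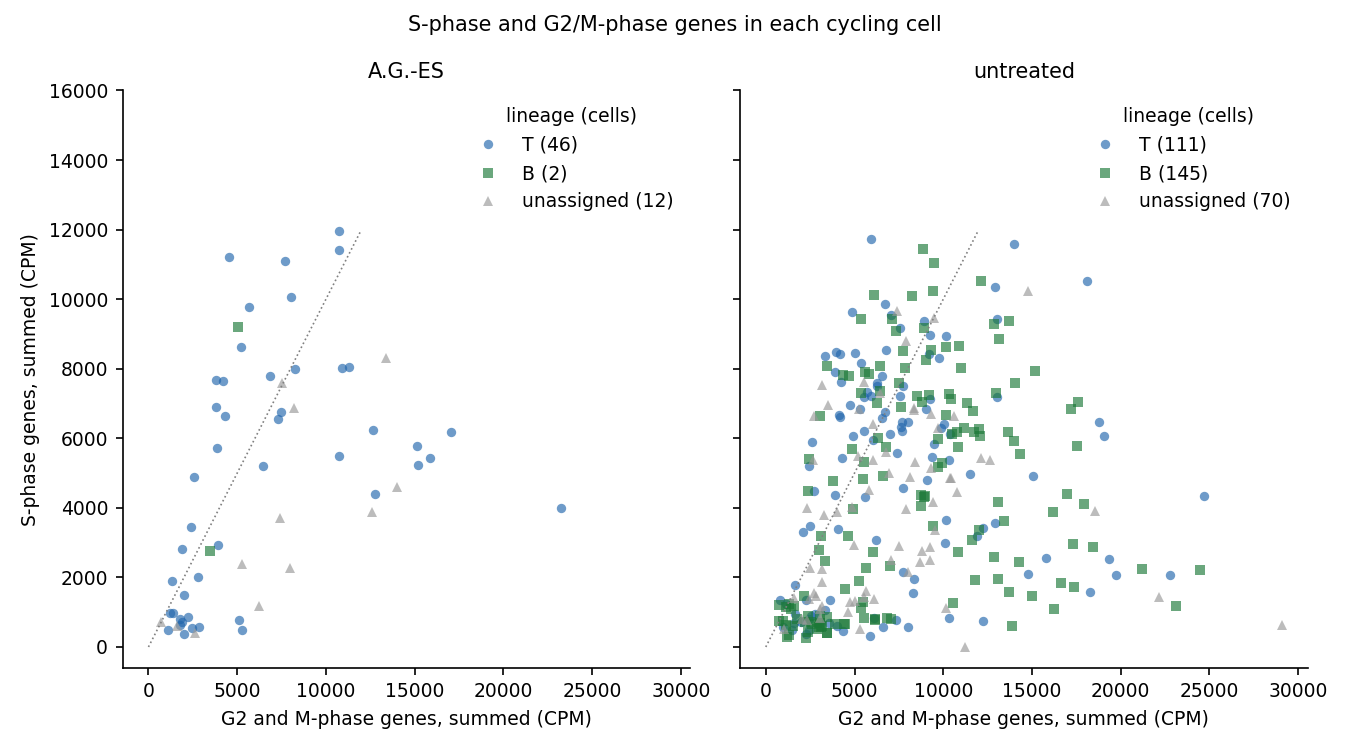
Each point is 1 cycling cell; the axes give the summed CPM of 50 G2 and M-phase genes and of 43 S-phase genes with A.G.-ES left, untreated right and the dotted line at equal sums. Points spread to both sides of the line, few are above 10000 CPM on both axes, and a group near the origin, among it 12 A.G.-ES and 18 untreated T cells, is low in both.

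The comparison of cycling with zero-marker cells is the choice itself seen across other genes, so it describes the cells and supports nothing further. Of genes at 50 CPM or more on average, 368 of 3202 (11.5%) were called higher and 119 (3.72%) lower in A.G.-ES cycling T cells. In untreated T cells the counts were 512 of 3308 (15.5%) and 264 (7.98%), and in untreated B cells 293 of 3134 (9.35%) and 108 (3.45%). Under trimmed-mean (TMM) scaling, which moves the median log2 ratio of all genes from 0.20 to -0.12, from 0.11 to -0.15 and from 0.08 to -0.20, the splits became 178 higher and 273 lower, 321 and 411, and 179 and 247. With ribosomal, mitochondrial and haemoglobin genes left out of the totals they became 356 and 222, 505 and 415, and 291 and 241. Of the 3006 genes at 50 CPM in both T-cell comparisons, 276 were higher in both, 84.1% of those called in the A.G.-ES library and 61.6% of those called in the untreated one. Another 76 were lower in both, 71.7% and 34.9% of those called lower, and 0 went opposite ways.

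Gene lists are counted below over every member with a fold, without a CPM minimum. On that scale 22.2% of 11419 genes were higher and 8.28% lower in A.G.-ES T cells, 23.4% and 11.8% of 12770 in untreated T cells, and 21.3% and 7.44% of 13136 in untreated B cells. These shares stand as the background, from which nothing is read. The list medians are medians of log2 ratios.

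Of the genes of origin licensing and the replication fork, 28 of 28 were higher in A.G.-ES cycling T cells, 28 of 28 in untreated ones and 27 of 28 in untreated B cells, with medians of 3.64, 3.75 and 3.35. MCM2, a subunit of the replicative helicase, had 101 CPM in cycling and 2.01 CPM in zero-marker T cells of the A.G.-ES library (50.3-fold, 34.0 to 74.4). In the untreated library MCM2 had 110 and 2.51 CPM in T cells and 69.5 and 2.92 CPM in B cells. PCNA, the sliding clamp of DNA polymerases, stood at 316 against 33.7 CPM in A.G.-ES T cells, 333 against 26.7 CPM in untreated T cells and 240 against 15.3 CPM in untreated B cells. CDC6, which loads the helicase, had 97.3 against 0.386 CPM, 86.3 against 0.760 CPM and 59.5 against 0.932 CPM. Each of the 3 genes was thus higher in the cycling cells of all 3 groups, PCNA by the smallest factor.

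Nucleotide synthesis was called higher for 10 of 14, 10 of 14 and 7 of 15 genes, with medians of 2.35, 2.40 and 0.88. RRM2, the regulated subunit of ribonucleotide reductase, had 113 CPM in A.G.-ES cycling T cells, 86.9 CPM in untreated ones and 62.0 CPM in untreated cycling B cells. Zero-marker cells held only 2 RRM2 UMIs over 6034 A.G.-ES T cells and 4 over 3196 untreated T cells, so the RRM2 ratio of 1462 in the A.G.-ES library carries an interval of 389 to 12321. TYMS, thymidylate synthase, had 75.1 against 2.93 CPM (A.G.-ES T), 80.5 against 3.42 CPM (untreated T) and 75.3 against 2.31 CPM (untreated B). For DUT, the dUTPase that keeps uracil out of DNA, the values were 663 against 40.5 CPM, 720 against 49.1 CPM and 681 against 69.9 CPM.

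Chromatin assembly genes followed: 16 of 16, 15 of 16 and 16 of 16 were higher. UHRF1, which carries DNA methylation marks through replication, reached 266 against 1.66 CPM in A.G.-ES T cells (161-fold, 114 to 231), 213 against 1.60 CPM in untreated T cells and 192 against 1.42 CPM in untreated B cells. The linker histone gene H1-2 had 1103 against 116 CPM, 1128 against 86.8 CPM and 1438 against 77.1 CPM. The chromatin protein HMGB1 was 4.47-fold, 4.90-fold and 5.62-fold higher, at 2094, 2625 and 2754 CPM in the cycling cells. STMN1, which destabilises microtubules, was 5.91-fold and 6.68-fold higher in T cells and 23.8-fold higher in B cells, whose zero-marker level of STMN1 was only 37.2 CPM against 161 and 129 CPM in T cells.

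Among the factors that drive the programme, 11, 12 and 12 of 18 E2F, MYB and FOXM1 genes were higher. FOXM1, the activator of G2 and M-phase genes, had 34.2, 31.1 and 35.8 CPM in the cycling cells and 2, 1 and 2 UMIs in the zero-marker cells. MYBL2, its partner in that role, had 114 against 2.85 CPM in A.G.-ES T cells and 72.2 against 2.81 CPM in untreated T cells. MYBL2 in untreated B cells was 104 against 24.3 CPM, a 4.27-fold difference (3.67 to 4.96), with the zero-marker B cells at a higher level than the T cells. E2F1, which starts S-phase transcription, was 23.5-fold, 31.7-fold and 37.6-fold higher.

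The cyclins divided by phase. CCNE2, cyclin E2 of the entry into S phase, had 39.3 against 1.39 CPM (A.G.-ES T), 44.1 against 0.608 CPM (untreated T) and 37.0 against 1.01 CPM (untreated B). CCNB1, the mitotic cyclin B1, had 37.6 against 1.97 CPM, 64.6 against 4.18 CPM and 92.4 against 1.34 CPM. The D-type cyclins, which couple growth signals to the cycle, went the other way. CCND3 had 108 CPM in cycling and 467 CPM in zero-marker T cells of the A.G.-ES library (4.34-fold lower, 3.39 to 5.65), and 86.3 and 757 CPM in the untreated library (8.77-fold lower, 7.45 to 10.4). Untreated B cells held CCND3 at 84.1 and 292 CPM. CCND2 was 3.85-fold, 2.64-fold and 2.58-fold lower. In CPM, CCNE2 and CCNB1 were thus higher and CCND2 and CCND3 lower in the cycling cells of all 3 groups. In UMIs per cell CCND2 was not lower in untreated T cells, at 0.613 against 0.433. Per cell it was lower in the other groups, and CCND3 in all 3.

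Genes of mitosis had the largest list medians. Of spindle, kinesin and cytokinesis genes 30 of 30, 31 of 31 and 31 of 31 were higher, with medians of 4.81, 5.14 and 5.48, and of kinetochore genes 27, 26 and 27 of 29, with medians of 4.15, 3.78 and 4.32. KIF11, the motor that separates spindle poles, had 184, 196 and 239 CPM in the cycling cells and 0.424, 0.684 and 1.05 CPM in the zero-marker cells. CENPE, a kinetochore motor, was 229-fold (155 to 348), 151-fold (95.5 to 254) and 98.2-fold (76.8 to 127) higher. AURKB, the Aurora B kinase, had no UMI in any of the groups.

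Condensin and cohesin genes were higher for 13, 13 and 14 of 16 members. SMC2, a core condensin subunit, had 523 against 16.0 CPM in A.G.-ES T cells, 443 against 18.9 CPM in untreated T cells and 351 against 23.6 CPM in untreated B cells. For mitotic exit the share was smaller, 14, 11 and 12 of 21 genes of the anaphase-promoting complex and its partners. Its ubiquitin-conjugating enzyme UBE2C reached 164, 127 and 318 CPM against 0.231, 0.456 and 0.567 CPM. CDC20, its mitotic activator, had 20.5 CPM in A.G.-ES cycling T cells and no UMI in zero-marker ones, at least 177-fold higher against a floor of 3 counts over those cells. In the untreated library CDC20 had 37.0 against 0.380 CPM in T cells and 41.2 against 0.162 CPM in B cells.

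**Figure D3:**
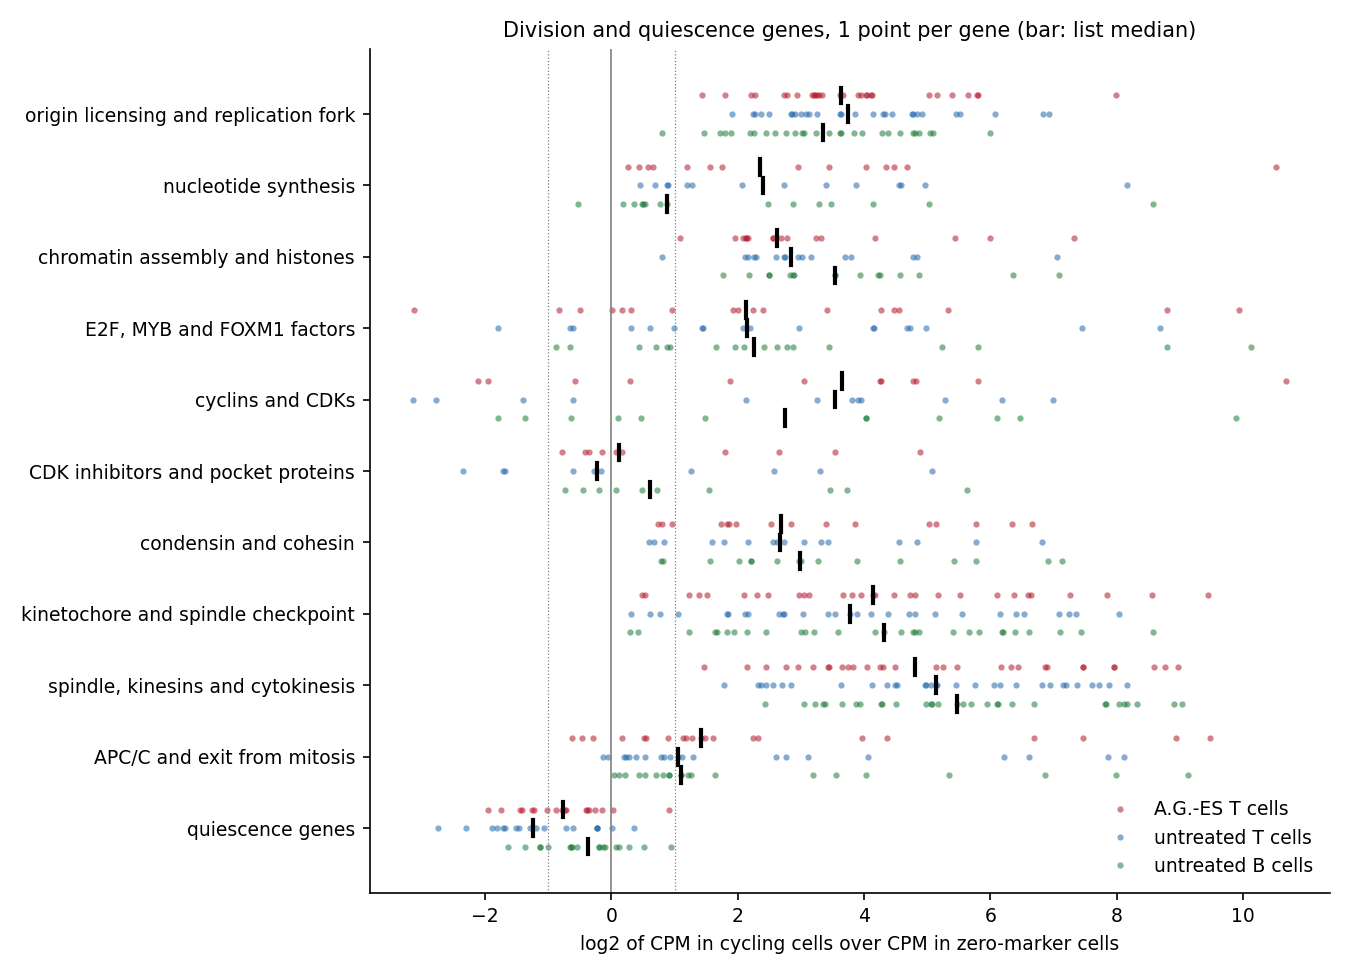
Log2 ratio of CPM in cycling over zero-marker cells for each gene with a fold in 10 cell division lists and the quiescence list, 1 point per gene, for A.G.-ES T cells (red), untreated T cells (blue) and untreated B cells (green); black bars are list medians, dotted lines mark 2-fold, and a gene with no UMI on one side is drawn at its bound against 3 counts. Spindle genes have the highest medians (4.81, 5.14 and 5.48), CDK inhibitors scatter around 0 and quiescence genes lie mostly below 0.

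Quiescence genes lay lower in the cycling cells: 7 of 18 in A.G.-ES T cells, 11 of 18 in untreated T cells and 5 of 18 in untreated B cells were called lower and 0 higher, with medians of -0.76, -1.24 and -0.37. BTG1, an antiproliferative adaptor of mRNA decay, had 577 against 1346 CPM in A.G.-ES T cells, 352 against 1235 CPM in untreated T cells and 622 against 1244 CPM in untreated B cells. TSC22D3, a glucocorticoid-induced regulator, had 135 against 451 CPM, 80.5 against 536 CPM and 143 against 222 CPM. FOXP1, which keeps naive T cells quiescent in mice, was 2.03-fold and 3.69-fold lower in T cells and 1.45-fold lower in B cells. The step was smaller in B cells than in T cells of the untreated library for all 3 genes.

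The quiescence list also moved with the marker level, which the choice fixed. Over T cells with 0, 1, 2 to 4, 5 to 9, 10 to 19 and 20 or more marker UMIs, its summed level was 4412, 4161, 3974, 2594, 2576 and 2661 CPM in the A.G.-ES library. In the untreated library it was 4629, 4095, 3747, 2293, 2038 and 1784 CPM. S-phase genes ran through 966, 1049, 1263, 4542, 5699 and 6714 CPM (A.G.-ES) and 1013, 1325, 1619, 3885, 5477 and 6257 CPM (untreated). The largest step in each series lay between 2 to 4 and 5 to 9 marker UMIs, at the threshold used.

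Inhibitors of cyclin-dependent kinases divided too. CDKN3, a phosphatase of CDK1 and CDK2 whose level peaks in mitosis, had 34.2 against 1.16 CPM (A.G.-ES T), 28.2 against 0.836 CPM (untreated T) and 50.4 against 1.01 CPM (untreated B). CDKN2C, the p18 inhibitor of CDK4 and CDK6, had 63.2 against 5.44 CPM in A.G.-ES T cells and 21.7 against 2.20 CPM in untreated ones. CDKN1A, the p21 inhibitor induced by p53, had 29.0 against 38.6 CPM in A.G.-ES T cells, a difference within counting error of none. In untreated T cells CDKN1A had 5.87 against 29.8 CPM, 5.07-fold lower (2.73 to 10.7).

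The T-cell identity of the cycling cells was read next. CD8A had 71.7 CPM in cycling and 41.5 CPM in zero-marker T cells of the A.G.-ES library (1.73-fold higher, 1.24 to 2.36), and 100.4 and 16.3 CPM in the untreated library (6.17-fold higher, 5.02 to 7.58). CD8B was 1.55-fold (1.16 to 2.02) and 5.03-fold (4.31 to 5.86) higher. CD4 had 76.9 against 126 CPM and 33.5 against 51.2 CPM, 1.64-fold and 1.53-fold lower in CPM. In UMIs per cell CD4 was not lower, at 0.978 against 0.543 in A.G.-ES T cells and 0.514 against 0.211 in untreated ones. After thinning a CD4 UMI was found in 13.0% against 18.5% of A.G.-ES T cells and 8.11% against 6.60% of untreated ones. Both CD8 genes thus passed 2-fold in untreated T cells and stayed under it in A.G.-ES T cells, and the difference between the ratios was not tested. Among T cells with a CD8A or CD8B UMI alone, the log2 ratios of CD8A and CD8B turned to -0.78 and -0.94 for A.G.-ES T cells, and for untreated ones they stood at 0.07 and -0.23. Those cells were chosen on the same genes, and the cycling ones were deeper. These CD8-only ratios are thus in part fixed by the choice, and nothing is read from them. CD8B in A.G.-ES T cells also turned, to -0.16, at a threshold of 10 marker UMIs.

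SOX13 had 5.12 against 47.1 CPM in A.G.-ES T cells (9.19-fold lower, 3.14 to 44.6) and 6.46 against 199 CPM in untreated T cells (30.8-fold lower, 17.2 to 61.7). RHEX, known from red cell precursors, had 17.1 against 142 CPM and 15.9 against 568 CPM. The A.G.-ES value of RHEX rests on 10 UMIs in 4 of 46 cells, and among T cells with a CD8A or CD8B UMI its log2 ratio was -0.09 in place of -3.05. Cycling cells of the libraries were thus close to each other in SOX13 and RHEX, while their zero-marker cells differed 4.22-fold and 4.02-fold. GATA3, a factor of T-cell and type 2 helper development, had 523 against 940 CPM and 242 against 937 CPM. In UMIs per cell GATA3 stood at 6.65 against 4.04 in A.G.-ES T cells and 3.71 against 3.85 in untreated ones. IKZF2, the Helios factor, had 208 against 84.1 CPM and 162 against 70.5 CPM, called higher in both libraries.

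Cytotoxic genes gave different counts in each library, a difference that was not tested: 0 of 10 were higher and 2 lower in A.G.-ES cycling T cells, and 6 of 10 higher and 1 lower in untreated ones, with medians of -0.15 and 1.17. GZMK, granzyme K, had 10.2 against 9.49 CPM in A.G.-ES T cells and 64.0 against 5.32 CPM in untreated T cells (12-fold higher, 8.83 to 16.5). CCL5, a chemokine of cytotoxic and memory T cells, had 763 against 835 CPM and 466 against 99.6 CPM. The cell-lysing protein GNLY had 1291 against 1798 CPM and 1073 against 551 CPM. PRF1, perforin, had 59.8 against 77.1 CPM and 89.3 against 39.9 CPM. For CCL5 and GNLY the summed levels of the cycling cells themselves were within 1.64-fold of each other. It was the zero-marker T cells that differed, 8.39-fold for CCL5 and 3.26-fold for GNLY. CCL5 was detected in similar parts of the cycling T cells, 60.9% (A.G.-ES) and 59.5% (untreated). GNLY was found in 43.5% and 21.6% of them. After thinning it was found in 23.9% (12.6 to 38.8) and 15.3% (9.18 to 23.4), with intervals that overlap. Zero-marker B cells also held a GNLY UMI, in 17.4% (A.G.-ES) and 4.26% (untreated), so its background differed between the libraries. GNLY was also spread unevenly. The cell richest in GNLY held 184 of its 756 A.G.-ES UMIs and 455 of its 1827 untreated UMIs.

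Among T cells with a CD8A or CD8B UMI alone, the cytotoxic list gave 0 higher and 7 lower of 10 in the A.G.-ES library. In the untreated library it gave 1 higher and 3 lower of 10, and the medians were -1.24 and -0.34. Of all genes at 50 CPM in these cells, 420 of 3164 were higher and 141 lower (A.G.-ES), and 456 of 3407 and 248 (untreated). A share of all genes without that minimum is not given for these cells. The untreated cytotoxic values thus depend on which T cells are compared: CCL5, at a log2 ratio of 2.23 over all T cells, stood at -0.09 in CD8 cells. A CD8A UMI was found in 41.3% of A.G.-ES cycling T cells (27.0 to 56.8) and 44.1% of untreated ones (34.7 to 53.9), against 12% and 4.60% of zero-marker T cells. After thinning the shares were 8.70% and 18.9%, against 7.31% and 2.83%.

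**Figure D4:**
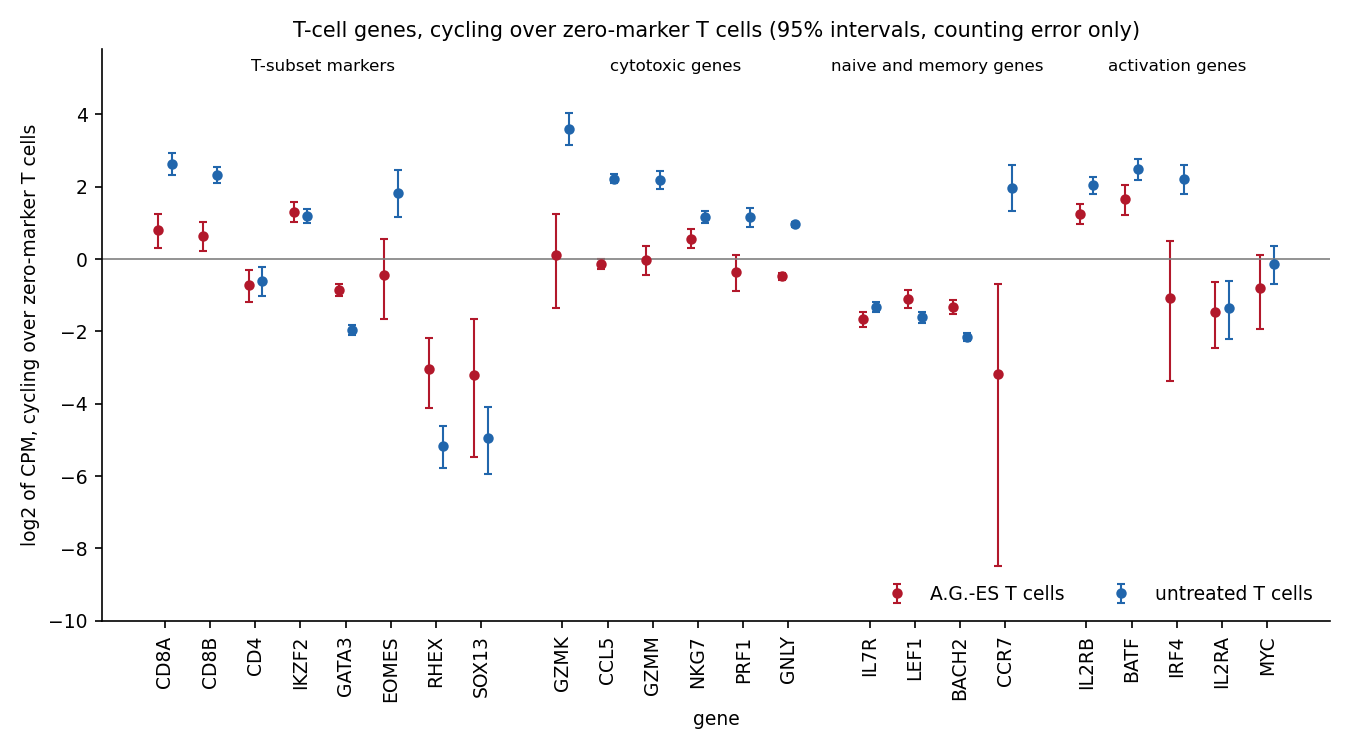
Log2 ratio of CPM in cycling over zero-marker T cells for T-subset, cytotoxic, naive and memory, and activation genes, A.G.-ES in red left of untreated in blue; bars are 95% intervals for counting error in 1 library each. CD8A, CD8B and the 6 cytotoxic genes drawn, which leave out the 1 called lower, lie above 0 in the untreated library and closer to 0, on either side, in the A.G.-ES library. SOX13 and RHEX lie far below 0 in both, with RHEX on 10 A.G.-ES UMIs.

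Genes of naive and central memory T cells were lower in CPM in both libraries, 7 of 10 in each, with medians of -1.20 and -1.67. IL7R, the receptor for the survival cytokine IL-7, had 333 against 1058 CPM in A.G.-ES T cells and 278 against 691 CPM in untreated ones. In UMIs per cell IL7R stood at 4.24 against 4.55 in A.G.-ES T cells and 4.26 against 2.84 in untreated ones. LEF1, a factor of naive T cells, had 251 against 538 CPM and 233 against 708 CPM. BACH2, which restrains effector differentiation, had 374 against 938 CPM and 392 against 1746 CPM. CCR7, the homing receptor for lymph nodes, was the member called higher in the untreated library, 19.4 against 4.94 CPM, with its 33 UMIs in 15 of 111 cells and 13 of them in 1 cell. In A.G.-ES cycling T cells CCR7 had 1 UMI.

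Activation genes gave 3 higher and 4 lower of 19 in A.G.-ES T cells and 6 higher and 2 lower of 19 in untreated ones. Over all genes without a CPM minimum, 22.2% were higher and 8.28% lower in A.G.-ES T cells, and 23.4% and 11.8% in untreated ones. IL2RB, a chain of the receptors for IL-2 and IL-15, had 186 against 77.9 CPM and 136 against 33.1 CPM. BATF, a factor of effector differentiation, had 90.5 against 28.7 CPM and 97.5 against 17.5 CPM. IL2RA, the high-affinity IL-2 receptor chain that marks recent activation, had 18.8 against 51.9 CPM and 8.81 against 22.6 CPM. MYC, the growth regulator, had 15.4 against 27.0 CPM and 20.6 against 22.7 CPM, both within counting error of no difference. In CPM, IL2RB and BATF were thus higher and IL2RA lower in the cycling T cells of both libraries. IL2RA rests on 11 UMIs in 3 of 46 A.G.-ES and 15 UMIs in 12 of 111 untreated cycling T cells. In UMIs per cell IL2RA was not lower, at 0.239 against 0.223 in A.G.-ES T cells and 0.135 against 0.0929 in untreated ones.

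Of MYC and glycolysis genes 4 of 16 were higher in A.G.-ES T cells, 9 of 16 in untreated T cells and 1 of 16 in untreated B cells, and none was called lower. Over all genes without a CPM minimum 22.2%, 23.4% and 21.3% were higher, the background also for the lists that follow. TPI1, triosephosphate isomerase, was 2.92-fold (2.36 to 3.57) and 3.86-fold (3.35 to 4.44) higher in T cells, and PKM, pyruvate kinase, 2.12-fold and 2.80-fold. GAPDH had 424 against 288 CPM in A.G.-ES T cells and 609 against 222 CPM in untreated T cells. Nuclear genes of respiration gave 3, 7 and 1 higher of 15. DNA damage and apoptosis genes gave 12, 12 and 8 higher of 18, among them BRCA1, which repairs replication breaks, with 97.3 against 0.887 CPM, 118 against 1.52 CPM and 114 against 0.649 CPM.

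Outside the division lists, the T-cell genes with the highest ratios at 50 CPM included PCLAF, a partner of PCNA, at 243 against 0.424 CPM in A.G.-ES T cells and 267 against 1.14 CPM in untreated ones. The linker histone gene H1-5 had 232 against 2.12 CPM and 299 against 2.51 CPM. ARHGAP11A, MND1 and POLE2 were also among them, with log2 ratios of 5.34, 4.69 and 4.56 in A.G.-ES T cells and of 4.90, 4.64 and 4.59 in untreated ones. MND1 acts in recombination and POLE2 is a subunit of a replicative polymerase. At the other end in the untreated library, SORCS2 had no UMI in cycling T cells against 110 CPM and was at least 62.3-fold lower, against a floor of 3 counts over those cells. SOX4, a developmental factor, had 7.05 against 276 CPM there, and CDK14, a kinase that works with cyclin Y, 12.3 against 384 CPM. CA8, a catalytically inactive carbonic anhydrase relative, had 12.3 against 468 CPM there and 11.9 against 142 CPM in A.G.-ES T cells.

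B-cell results rest on the untreated library, since the A.G.-ES library held 2 cycling B cells. Those 2 cells had 15 MKI67, 4 TOP2A, 3 CENPF, 11 PCNA and 25 JCHAIN UMIs between them and are not compared further.

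Antibody secretion genes set the untreated cycling B cells apart from zero-marker B cells: 11 of 14 were higher and 1 lower, with a median of 2.10. JCHAIN, which joins IgM and IgA into polymers, had 1482 against 277 CPM (5.36-fold, 5.14 to 5.58). A JCHAIN UMI was found in 137 of 145 cycling cells (94.5%) and 1915 of 2745 zero-marker cells (69.8%), and after thinning in 61.1% and 33.4%, against 1.76% of thinned zero-marker T cells. MZB1, a chaperone of antibody assembly, had 62.4 against 8.39 CPM, and HSP90B1, a chaperone of the endoplasmic reticulum, 849 against 192 CPM. PRDM1, the Blimp-1 factor of plasma cells, had 23.7 against 4.38 CPM, and XBP1, which expands the secretory pathway, 57.8 against 16.2 CPM. IRF4, which plasma cells need, stood at 97.8 against 97.4 CPM, and SSR4, a translocon subunit, was 2.01-fold lower (1.87 to 2.15).

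JCHAIN followed the marker level within the untreated B cells, at 277, 447, 1064, 1028, 1401 and 1587 CPM over cells with 0, 1, 2 to 4, 5 to 9, 10 to 19 and 20 or more marker UMIs. Its largest step lay between 1 and 2 to 4 UMIs, below the threshold for cycling cells.

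Genes of B-cell identity stayed near their zero-marker level or below it: 0 of 15 were higher and 2 lower, with a median of -0.57. MS4A1, which codes for CD20 and took part in the lineage rule, had 391 against 813 CPM, and BANK1, a B-cell scaffold protein outside the rule, 1253 against 2491 CPM. EBF1, an early B-cell factor, had 1840 against 1928 CPM and CD79A, a chain of the antigen receptor, 521 against 592 CPM. Of germinal centre genes 4 of 9 were higher, but BCL6, the master regulator of that stage, had 7 UMIs (2.91 CPM) against 2.63 CPM. S1PR1, the receptor that lets lymphocytes leave tissue for blood, had 78.6 against 21.3 CPM (3.69-fold, 3.11 to 4.36).

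PCLAF, H1-5 and BRCA1 led the B cells too, with log2 ratios of 9.05, 7.96 and 7.46. After them DIAPH3, an actin nucleator, had 371 against 3.36 CPM and LMNB1, lamin B1 of the nuclear envelope, 288 against 16.5 CPM. ITM2B, a membrane protein, had 255 against 1122 CPM (4.40-fold lower, 4.07 to 4.78) and the chromatin organiser SATB1 36.2 against 147 CPM. ARHGEF10L and AOAH had the lowest ratios, at 10.4 against 93.8 CPM and 21.2 against 174 CPM.

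Cycling B over cycling T cells of the untreated library gave 6.24% of 3496 genes at 50 CPM called higher and 6.86% lower. Of 43 S-phase genes 0 were higher and 1 lower, and of 49 G2 and M-phase genes 3 were higher and 0 lower. Both groups passed the same cut on the marker genes, which in part fixes these counts. Summed S-phase level was 4666 CPM in cycling B cells and 5579 CPM in cycling T cells, and summed G2 and M-phase level 9042 and 7752 CPM. Respiration genes gave 0 of 15 past 2-fold and glycolysis genes 1 higher and 1 lower of 16, against 11.7% higher and 13.9% lower of all genes without a CPM minimum.

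Unassigned cycling cells were of 2 kinds. Those with CD3 and B-cell UMIs together, 7 in the A.G.-ES library and 37 in the untreated one, held a median of 22088 and 21051 UMIs, more than cycling T or B cells. High doublet scores were found in 1 of the 7 and 14 of the 37, against 3 of 46 and 9 of 111 cycling T cells. JCHAIN was found in 7 of 7 and 31 of 37 of them, and CD8A in 1 and 8. Barcodes of this kind were 11.7% and 11.3% of cycling cells, and 4.29% and 5.82% of zero-marker cells. The part of doublets in this was not tested.

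The other kind had no CD3 UMI and fewer than 3 B-cell UMIs, 5 cells in the A.G.-ES library and 33 in the untreated one. The 33 untreated cells carried antibody secretion genes above the cycling B cells: 12 of 14 were higher and 0 lower, where 15.9% of 10245 genes were higher and 13.7% lower. PRDM1 had 209 CPM in these cells and 23.7 CPM in cycling B cells (8.83-fold, 6.19 to 12.7), with a UMI in 23 of 33 and 26 of 145 cells. MZB1 had 438 against 62.4 CPM (7.02-fold, 5.58 to 8.82), XBP1 337 against 57.8 CPM, JCHAIN 4369 against 1482 CPM and HSP90B1 3343 against 849 CPM. TENT5C, which stabilises immunoglobulin mRNA in mice, had 231 against 20.4 CPM, and RRBP1, a ribosome receptor of the rough endoplasmic reticulum, 1017 against 89.5 CPM.

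In the same cells EBF1 had 212 against 1840 CPM and BANK1 378 against 1253 CPM. MS4A1, PAX5 and CD79B were lower too, but their low counts are what kept the cells out of the B class. GNLY, a gene of cytotoxic T and NK cells, had 193 against 4.99 CPM, with all 71 UMIs in 2 of the 33 cells. The 5 A.G.-ES cells of this kind had JCHAIN in 3, PRDM1 in 2 and MZB1 in 1.

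**Figure D5:**
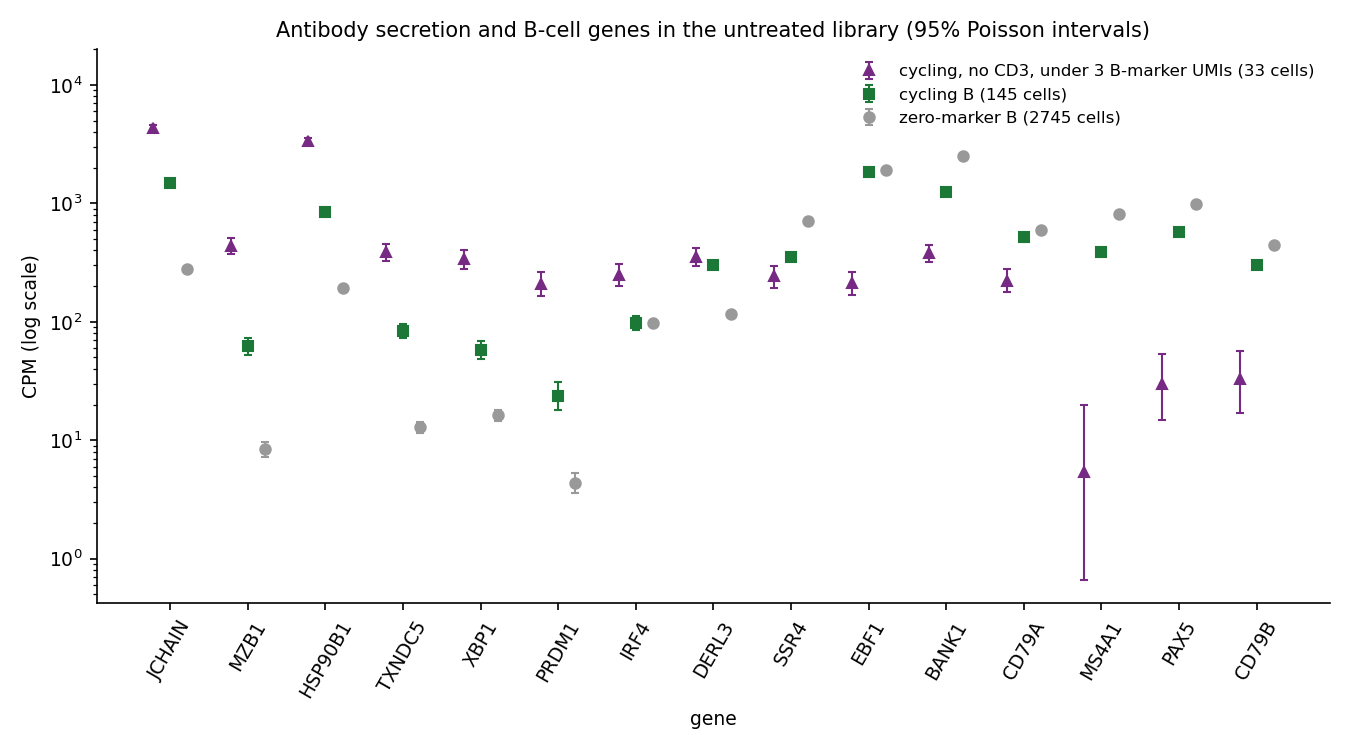
CPM on a log axis with 95% Poisson intervals for 15 antibody secretion and B-cell genes in the untreated library: 33 cycling cells with no CD3 UMI and under 3 B-marker UMIs (purple), 145 cycling B cells (green) and 2745 zero-marker B cells (grey). JCHAIN, MZB1, HSP90B1, TXNDC5, XBP1 and PRDM1 step down from purple to green to grey, and EBF1 (212, 1840 and 1928 CPM) does not; MS4A1, PAX5 and CD79B belong to the lineage rule.

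A few cells of the T class carried the same antibody genes. JCHAIN reached at least 10 UMIs in 1 A.G.-ES and 10 untreated cycling T cells, which held 188 of 190 and 1193 of 1213 of the JCHAIN UMIs of the class. The 10 untreated cells had a median of 1 CD3 UMI, against 16 in the other untreated cycling T cells, and no UMI of CD8A, CD8B, LCK, GNLY or CCL5. They held all 114 MZB1 UMIs and 171 of the 185 EBF1 UMIs of untreated cycling T cells, with 129 of the EBF1 UMIs in 1 cell. Without them JCHAIN stood at 3.51 CPM in the 45 A.G.-ES cells left and 13.0 CPM in the 101 untreated cells left, against 6.32 and 9.88 CPM in zero-marker T cells. The antibody secretion list in T cells went from 7 higher of 14 to 4 of 13 in the A.G.-ES library and from 9 of 14 to 4 of 12 in the untreated library. The antibody secretion list between the libraries had 0 higher and 5 lower of 14 genes in A.G.-ES cycling T cells, and 1 higher and 3 lower of 12 without the JCHAIN-rich cells. The cytotoxic list of the untreated library had 8 of 10 higher without the JCHAIN-rich cells. Of all genes at 50 CPM, 374 of 3207 were then higher in A.G.-ES and 515 of 3327 in untreated cycling T cells. Between the libraries 59 of 3494 were then higher and 48 lower. The list counts have no such minimum, and a share of all genes without it is not given here. GZMK (70.9 CPM), CD8A (111 CPM) and CCR7 (20.8 CPM) of the untreated cells were not carried by the JCHAIN-rich cells.

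Between the libraries, cycling T cells of the A.G.-ES library over those of the untreated library gave 56 of 3486 genes at 50 CPM called higher (1.61%) and 52 lower (1.49%). The zero-marker T cells of the same libraries gave 53 of 2966 (1.79%) and 91 (3.07%). Among the division lists, 0 of 43 S-phase genes, 0 of 47 G2 and M-phase genes, 0 of 28 licensing genes and 0 of 29 kinetochore genes passed 2-fold. The medians were 0.06 for S phase and 0.12 for G2 and M phase. Over all genes without a CPM minimum, 11.4% of 10960 were higher and 8.28% lower. Both groups passed the same cut on the marker genes. Like levels of these lists are thus in part fixed by the choice, and nothing is read from them.

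Other division genes passed 2-fold, some of them on low counts. PLK1, the Polo-like kinase of mitosis, had 6 UMIs (10.2 CPM) in A.G.-ES and 46 (27.0 CPM) in untreated cycling T cells, 2.64-fold lower (1.12 to 7.55). CEP55, which ends cytokinesis, had 22.2 and 51.7 CPM (2.33-fold lower, 1.29 to 4.54), and KIF20A 2 and 17 UMIs. Of the inhibitors of cyclin-dependent kinases, 3 of 9 were called higher in the A.G.-ES cells. CDKN1A had 29.0 and 5.87 CPM (4.94-fold higher, 2.14 to 12.1), and 38.6 and 29.8 CPM in zero-marker T cells. CDKN2C had 63.2 and 21.7 CPM, and CDKN2D, the p19 inhibitor of CDK4 and CDK6, 101 and 48.8 CPM. CDKN1A rests on 17 and 10 UMIs.

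The named genes of largest difference between cycling T cells mostly went the same way in zero-marker T cells. COX3, a mitochondrially encoded subunit of cytochrome c oxidase, had 3639 CPM in A.G.-ES and 220 CPM in untreated cycling T cells (16.5-fold higher), and was 12.8-fold higher in zero-marker T cells. ND1, a mitochondrially encoded subunit of complex I, was 4.69-fold and 3.62-fold higher, and FTL, ferritin light chain, 2.37-fold and 1.74-fold. HMCN2, annotated as an extracellular matrix gene, took 23648 CPM and 9767 CPM in cycling T cells and was 1.92-fold higher in zero-marker ones. Mitochondrial UMIs made up 2.89% of UMIs of A.G.-ES and 1.87% of untreated cycling T cells, and their part in this was not tested.

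TNFAIP3, a brake on NF-kB signalling, was 2.20-fold and 1.45-fold higher, and MSI2, an RNA-binding protein, 2.28-fold and 1.95-fold lower. S100A13, SND1, ATP5MC1 and PIK3R5 were 2.72-fold, 2.16-fold, 2.12-fold and 2.10-fold lower in cycling T cells, and 1.38-fold, 1.24-fold, 1.36-fold and 1.30-fold lower in zero-marker ones. FABP5, a fatty acid carrier, was lower in both as well, at 97.3 and 242 CPM in cycling T cells and 5.24 and 10.2 CPM in zero-marker ones. Of 18 genes past 2-fold that were followed through the alternatives, COX3, ND1, FTL, PARD3B, FABP5 and S100A13 stayed past it in every one run, and the other 12 fell under 2-fold or turned in at least 1.

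A smaller set differed 2-fold in cycling T cells and not, or the other way, in zero-marker T cells. S100A4, a calcium-binding protein of effector and memory cells, had 150 CPM in A.G.-ES and 481 CPM in untreated cycling T cells (3.20-fold lower, 2.57 to 4.03), against 532 and 561 CPM in zero-marker T cells. Of its 88 A.G.-ES UMIs 33 lay in 1 cell, and its log2 ratio of -1.68 was -0.52 at a threshold of 3 marker UMIs and -0.92 in thinned cells. ZFP36L2, an RNA-binding protein that restrains division of developing lymphocytes in mice, had 398 and 182 CPM, against 587 and 581 CPM. SYNE2, a nuclear envelope linker, had 205 and 86.9 CPM in cycling T cells (2.36-fold higher, 1.84 to 3.02) and 110 and 306 CPM in zero-marker ones, the opposite order. PARD3B, a cell polarity gene, did likewise, at 161 and 60.5 CPM in cycling T cells and 184 and 318 CPM in zero-marker ones. GZMK was 6.25-fold lower in the A.G.-ES cells (2.78 to 17.4), on 6 and 109 UMIs. IRF4 had 5.12 and 50.5 CPM, 3 and 86 UMIs, of which 30 untreated UMIs lay in the 10 JCHAIN-rich cells.

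Markers of other blood cells were low in cycling T cells. The monocyte list summed to 6.83 CPM in A.G.-ES and 5.29 CPM in untreated cycling T cells, against 132 and 35.0 CPM in zero-marker T cells. CSF1R, LYZ, S100A8 and TLR4 had no UMI in cycling T cells of either library, and CD14 had 0 UMIs in A.G.-ES and 1 UMI in untreated cycling T cells. Of the NK-cell markers, NCR1 had 22.2 CPM in A.G.-ES and 15.9 CPM in untreated cycling T cells, against 25.9 and 12.2 CPM in zero-marker ones, and KLRF1 was at 0 in both. Progenitor markers summed to 0 and 4.11 CPM and platelet markers to 18.8 and 26.4 CPM.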

How the data were processed

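The deposited values are raw UMI counts per gene and barcode for 2 libraries, made with the SeekOne DD 3′ kit per the labels' protocols. Which aligner, genome build and cell calling were used is not given in the sources used here. The files hold 26814 gene names, and the 53 names that occur more than once were left out of gene results. CD3G was not analysed here.

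From these counts, barcodes were kept at 200 genes or more and at most 15% mitochondrial UMIs, and doublets were not removed. Scrublet scores (scanpy 1.11.5) entered only as an alternative, which took out the highest scores at 0.8% per 1000 barcodes. UMIs were summed over the cells of a group and scaled to CPM. Ratios carry exact conditional binomial intervals, shares Clopper-Pearson intervals and CPM Poisson intervals, all at 95%. They cover counting error only, and cells of 1 library share an animal source and are not replicates. A gene with no UMI on one side was set against a floor of 3 counts over the group. The 3 marker genes were left out of every gene count. Genes entered the counts of called genes at a mean of 50 CPM. On simulated counts the intervals held the true ratio for 95.62% of 2784 genes in the A.G.-ES library and 94.81% of 2872 in the untreated one. Those counts were independent Poisson draws per gene, the model behind the intervals, so this coverage checks the calculation only. UMIs gathered in single cells were not simulated, so it does not show that the intervals cover the real data. Calculations used Python 3.11.15, numpy 2.4.6, scipy 1.17.1, pandas 2.3.3 and matplotlib 3.10.9.

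The members, the 28 gene lists and the comparisons were chosen with earlier results of these data known. Genes named are the markers, the most abundant and most changed members of each list, and the 8 highest and 8 lowest ratios of a comparison at 50 CPM outside the 12 division lists, or at 100 CPM between libraries. Members of the lineage and subset lists were also named. Other list members, such as BCL6, CDKN1A and GZMK, were named after their values were seen, and some genes that the rule names are not reported here.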

Additional observations from a re-analysis of the deposited data

How the results depend on the processing

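No paired analysis was possible because each group holds 1 library. With 1 library per group no replicate could be left out either. Of the alternatives, the CD8-only and JCHAIN-free T cells were chosen after seeing the data. The share of cycling cells in the A.G.-ES library over that in the untreated library was 0.157 for kept cells and 0.22 after thinning to 2000 UMIs, and 0.233 and 0.361 for T cells. The B-cell ratio of 0.034 and the share of B cells among cycling cells did not leave their intervals under any alternative run.

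Counts of called genes depended on the CPM minimum. At 20 CPM in place of 50, the counts higher and lower in cycling cells became 852 and 264 in A.G.-ES T cells, 1063 and 436 in untreated T cells, and 686 and 204 in untreated B cells. At 200 CPM they became 60 and 55, 100 and 99, and 52 and 27. TMM scaling gave 178 and 273, 321 and 411, and 179 and 247. Without ribosomal, mitochondrial and haemoglobin genes the counts lower became 222, 415 and 241. In A.G.-ES T cells a threshold of 3 marker UMIs gave 221 higher and 57 lower, and a threshold of 10 gave 179 lower. Between the libraries, the 56 higher and 52 lower genes of cycling T cells became 156 and 185 at 20 CPM, 10 and 8 at 200 CPM, 89 and 87 at a marker threshold of 10, and 222 and 257 in thinned cells, where a gene at the minimum rests on few UMIs. In CD8-only cells 80 were lower. For other shifts the cause was not tested.

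Over members at 50 CPM, the median log2 ratio of S-phase genes in A.G.-ES T cells (2.95) was 2.14 at 200 CPM and 2.24 in thinned cells, and in untreated T cells (2.89) 2.01 at 200 CPM. That of G2 and M-phase genes in A.G.-ES T cells (3.34) was 2.16 at 3 marker UMIs, 1.95 at 200 CPM, 2.62 under TMM scaling, 2.18 with every cell given the same weight and 2.41 in thinned cells. In untreated T cells (2.83) it was 4.12 at 20 CPM and 2.08 at 200 CPM, and in untreated B cells (3.35) 4.69 at 20 CPM. None of these changed sign. Between the libraries the S-phase median (0.12) was -0.09 at 3 marker UMIs and -0.108 in thinned cells, and the G2 and M-phase median (0.181) ran down to -0.178 in thinned cells.

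Among ratios past 2-fold, a change of sign was found for JCHAIN in A.G.-ES T cells (log2 ratio -0.327 at 10 marker UMIs, -0.78 without high doublet scores and -0.325 without JCHAIN-rich cells), for CD8B (-0.226) and CCL5 (-0.0908) in untreated CD8-only T cells, and for JCHAIN between the libraries in CD8-only cells (5.1). The CD8-only cells were chosen on CD8A and CD8B themselves, so the CD8B value is in part fixed by the choice. Counting ratios under 2-fold as well, 23 single-gene values had the other sign, among them GNLY in untreated CD8-only T cells (-1.37, against 0.961) and ICOS there (-0.167, against 0.374). Between the libraries, genes of cycling T cells that fell under 2-fold had a log2 ratio, at its nearest to 0, of -0.45 for MSI2 (CD8-only cells), -0.458 for SND1 and -0.381 for ATP5MC1 (thinned cells), -0.463 for PIK3R5 (3 marker UMIs), 0.858 for HMCN2 and 0.862 for ZFP36L2 (equal cell weights), and 0.94 for SYNE2 and 0.933 for TNFAIP3 (3 marker UMIs).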
